A study of Mus musculus with 8 samples.

Results

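Kinetochore and spindle checkpoint genes were followed in germinal centre B cells sorted from the dark zone and the light zone. The set holds 43 genes of 18193 named on the array: 23 listed by name and the 20 genes whose annotated symbol is Cenp followed by 1 letter. Each gene is represented by its brightest probe set, a group of short probes against 1 transcript, which is the one with the highest mean log2 intensity over the arrays. The samples were 4 dark zone and 4 light zone populations of germinal centre B cells (B220+CD38-CD95+) from lymph nodes of C57BL/6 mice, taken 12 days after subcutaneous immunization with NP-KLH in alum. Both groups come from immunized wild-type animals, so there is no unimmunized group. The age of the mice and any pooling of animals are not given in the sources used here, and the 4 samples of a zone are labelled as biological replicates. Each sample was measured on 1 Affymetrix array.

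The kinetochore is the protein assembly on the centromere that attaches a chromosome to spindle microtubules in mitosis. Its inner part, a network of CENP proteins, sits on nucleosomes that carry the histone variant CENP-A. The outer part, made of Knl1, the Mis12 complex and the Ndc80 complex, binds microtubules. The spindle checkpoint senses kinetochores that lack attachment and holds back anaphase. Many of these genes are transcribed mainly in late S phase, G2 and mitosis, and the dark zone is classically the site where germinal centre B cells divide.

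Groups follow the titles of the samples. The labels word the gates the other way round from the usual definition, with high CXCR4 and low CD83 for the light zone. The mRNA of both genes followed the titles: Cxcr4 was higher in the dark zone by 0.96 on the log2 scale and Cd83 fell by 2.32 in the dark zone. The B cell genes Cd79a, Cd79b, Ms4a1 and Pax5 were all above the brightness filter, and their summed intensity was 15460 to 16077 in dark zone arrays and 15980 to 16728 in light zone arrays. Of 6 T cell markers, Cd3d, Cd3g, Cd8a and Trat1 were below the filter, and the sum was 147 to 161 in dark zone arrays and 147 to 157 in light zone arrays. The summed intensity of 6 myeloid markers was 266 to 990.0 in dark zone arrays and 159.6 to 218 in light zone arrays. The lysozyme gene Lyz2 made up most of the change, at 128 to 824 in dark zone arrays and 37.7 to 89.1 in light zone arrays. Csf1r rose by 0.40, Adgre1 did not pass (0.07, limma adjusted p = 0.43), and Itgam, Cd14 and Fcgr1 were below the filter. The summed intensity of 5 germinal centre genes was 10884 to 11572 in dark zone arrays and 7619 to 8338 in light zone arrays. Gcsam (1.48) and Mybl1 (0.76) rose most, and S1pr2 rose by 0.26. Bcl6 did not pass (0.14, limma adjusted p = 0.13), and Fas was lower in the dark zone (-0.23, limma adjusted p = 0.01). The sum of 3 naive B cell markers was 654 to 724 in dark zone arrays and 2658 to 2932 in light zone arrays, with Fcer2a at -2.06 and Klf2 at -1.95, and Ccr7 below the filter. The sum of 5 plasma cell genes was 11722 to 12263 in dark zone arrays and 10751 to 12069 in light zone arrays. Within this sum, Irf4 was at -2.03 and Prdm1 at -1.37, while Jchain, the brightest, rose by 0.15 (limma adjusted p = 0.049). Sdc1 and Xbp1 did not pass, at -0.14 and -0.15. The part of these markers in the results was not tested.

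Most of the set was higher in the dark zone. A gene was tested if its mean reached an intensity of 27.8, the 50th percentile of all probe sets, and 42 of the 43 genes did. Mad1l1 was too dim. For all 42 tested genes the mean of the lower zone was also above this level. In limma's comparison of the zones, 33 of the 42 were higher in the dark zone at a Benjamini-Hochberg adjusted p under 0.05, 1 (Pmf1) was lower and 8 did not pass. Over all 10547 tested genes, 43.9% were called in either direction, 19.1% higher in the dark zone and 24.8% lower. The median log2 difference, dark zone minus light zone, was 0.48 over the 42 genes and -0.01 over all tested genes. A rise of at least 1.5-fold was measured for 17 of the 42, against 3.86% of all tested genes, and of at least 2-fold for 3 (Cenpf, Cenpa and Cenpe), against 1.17%. Every dark zone array lay above every light zone array in 30 of the 42, against 18.1% of all tested genes. The arrays measure sorted populations, so a larger share of cells in mitosis and more of these mRNAs per cell cannot be told apart. All members were read from the same 8 arrays, so they are not independent of each other.

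**Figure D1:**
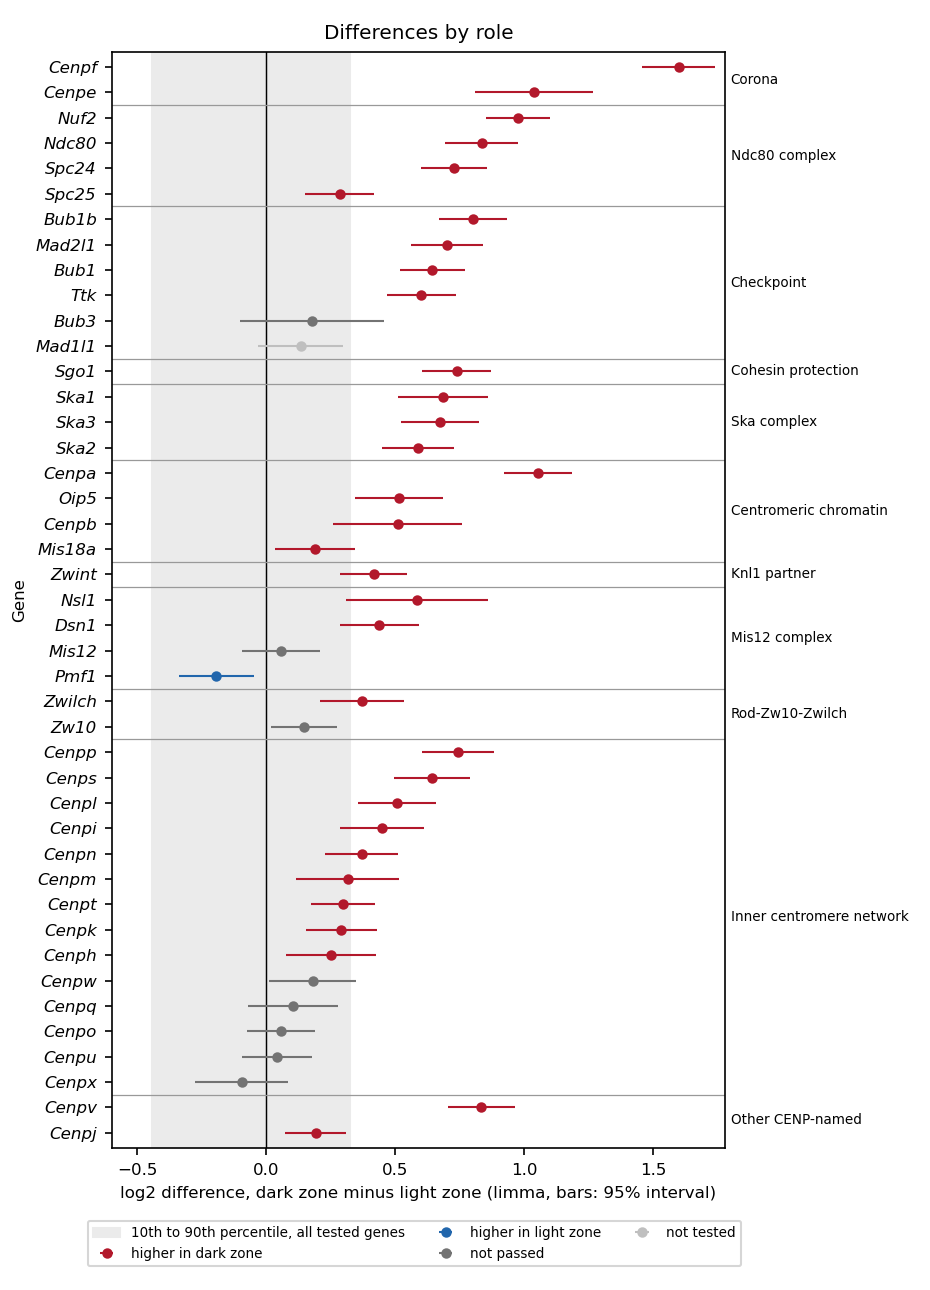
Log2 difference (dark zone minus light zone, x axis) of each gene, grouped by role, with its 95% interval from limma (4 arrays per zone). Red points were called higher in the dark zone, the blue point (Pmf1) lower, dark grey points did not pass and light grey Mad1l1 was not tested. The band spans the 10th to the 90th percentile of all tested genes (-0.44 to 0.33), and the corona, Ndc80 (except Spc25), Ska and most checkpoint genes lie to its right while much of the inner centromere network lies inside it.

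Differences were not equal across the structure. Both corona genes, all 4 genes of the Ndc80 complex, all 3 of the Ska complex and 4 of 5 tested checkpoint genes rose, with medians of 1.32, 0.78, 0.67 and 0.64. In the inner centromere network 9 of 14 rose, and the median was 0.29. In the Mis12 complex 2 of 4 rose, 1 fell and 1 did not pass. These counts and medians describe groups of different size, and no test was made between the groups.

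The start sites of these genes were read for the short elements that cell cycle promoters are known to carry, because the genes moved together. The CHR element (TTTGAA) is bound by the DREAM and MuvB complexes, which repress genes in resting cells and activate them in G2 and mitosis. The CCAAT box is bound by NF-Y, and GCGGGAA is a form of the E2F site. RefSeq promoters (GRCm38.p6, 250 bases before to 50 after the start) were matched by symbol for 39 of the 43 genes, and either strand was searched. A gene counted as holding an element if any of its promoters did. The 6 promoters that follow run from 5′ to 3′ on the strand of the gene. They show the largest difference with CHR and CCAAT matches (Cenpf), a histone and a checkpoint gene that also hold both elements (Cenpa and Bub1b), an inner network gene with all 3 elements (Cenpn), a gene that rose with none of them (Nuf2) and a gene that did not pass although it has CCAAT boxes (Mis12). Capitals mark the CHR element, the CCAAT box and GCGGGAA, or their reverse complements. The promoters lie at chr1:189688037-189688336, minus strand (Cenpf), chr5:30666636-30666935, plus strand (Cenpa), chr2:118597961-118598260, plus strand (Bub1b), chr8:116921490-116921789, plus strand (Cenpn), chr1:169531415-169531714, minus strand (Nuf2) and chr11:71019361-71019660, plus strand (Mis12).
Cenpf: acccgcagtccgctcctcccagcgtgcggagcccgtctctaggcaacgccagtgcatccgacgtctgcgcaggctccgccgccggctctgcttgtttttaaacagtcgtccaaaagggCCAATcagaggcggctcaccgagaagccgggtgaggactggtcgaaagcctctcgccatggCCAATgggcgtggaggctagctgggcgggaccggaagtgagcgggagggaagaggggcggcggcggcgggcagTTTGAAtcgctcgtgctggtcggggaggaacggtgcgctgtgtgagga
Cenpa: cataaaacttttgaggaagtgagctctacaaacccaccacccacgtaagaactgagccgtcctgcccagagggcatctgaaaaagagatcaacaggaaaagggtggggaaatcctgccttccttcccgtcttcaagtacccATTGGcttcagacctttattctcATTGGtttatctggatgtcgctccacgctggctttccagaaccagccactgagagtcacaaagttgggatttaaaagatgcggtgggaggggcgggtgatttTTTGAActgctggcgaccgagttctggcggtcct
Bub1b: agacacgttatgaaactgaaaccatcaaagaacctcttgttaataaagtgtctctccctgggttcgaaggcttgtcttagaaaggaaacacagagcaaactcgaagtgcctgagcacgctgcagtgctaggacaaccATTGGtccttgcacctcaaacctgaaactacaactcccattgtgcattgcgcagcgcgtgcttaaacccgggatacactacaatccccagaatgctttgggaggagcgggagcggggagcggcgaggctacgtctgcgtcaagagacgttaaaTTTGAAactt
Cenpn: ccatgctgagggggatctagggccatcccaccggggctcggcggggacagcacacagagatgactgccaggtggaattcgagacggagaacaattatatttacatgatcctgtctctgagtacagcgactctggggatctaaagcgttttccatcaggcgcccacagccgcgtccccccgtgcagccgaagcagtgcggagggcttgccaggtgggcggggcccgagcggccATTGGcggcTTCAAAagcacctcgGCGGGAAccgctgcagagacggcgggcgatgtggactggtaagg
Nuf2: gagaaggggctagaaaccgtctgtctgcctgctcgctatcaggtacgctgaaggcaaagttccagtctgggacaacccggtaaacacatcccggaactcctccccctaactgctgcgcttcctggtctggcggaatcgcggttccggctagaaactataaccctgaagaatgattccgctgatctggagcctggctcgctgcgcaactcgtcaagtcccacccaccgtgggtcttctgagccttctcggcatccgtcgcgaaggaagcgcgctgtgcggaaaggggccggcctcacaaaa
Mis12: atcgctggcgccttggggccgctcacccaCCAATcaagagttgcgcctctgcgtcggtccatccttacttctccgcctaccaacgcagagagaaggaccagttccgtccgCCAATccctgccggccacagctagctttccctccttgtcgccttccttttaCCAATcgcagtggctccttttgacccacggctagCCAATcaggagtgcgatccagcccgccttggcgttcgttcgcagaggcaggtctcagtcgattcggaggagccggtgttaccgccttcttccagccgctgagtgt

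In Cenpf the CHR match begins 3 bases after the start, with CCAAT boxes 71 and 132 bases before it. In Cenpa it begins 17 bases after the start, with CCAAT boxes on the opposite strand 86 and 109 bases before it. TTTGAA occurred in 14 of the 39 genes (35.9%), against 14.1% of the 8572 tested genes with a promoter and 20.2% of all 27025 genes in the table. Within 50 bases of the start, a window chosen after the positions were seen, it occurred in 11 of the 39 (28.2%), against 3.8% of tested genes and 5.7% of all genes in the table. CCAAT occurred in 24 of the 39 (61.5%), against 42.8% of tested genes and 41.1% of all. GCGGGAA occurred in 10 of the 39 (25.6%), against 9.9% of tested genes and 5.3% of all. Of these 10 genes, 7 belong to the inner centromere network (7 of 14) and 3 (Cenpb, Dsn1 and Zw10) to the other 25. TTTGAA near the start ran the other way, with 2 of 14 in the inner network (Cenpn and Cenpw) and 9 of 25 among the others.

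The shares of the MYB motif and the other E2F form were below those of tested genes and above those of all genes in the table. AACGG, the core of the MYB site, occurred in 25.6% of the 39 genes, against 27.2% of tested genes and 19.6% of all in the table. The E2F form GCGCGAA occurred in 1 gene (Cenps, 2.6%), against 3.7% of tested genes and 1.8% of all. The other CHR form searched, TTTAAA, occurred in 7 genes (17.9%), against 10.6% of tested genes and 14.9% of all. Over the whole window, TTTGAA occurred in 10 of 29 genes called higher (34.5%) and in 4 of the other 10 (40.0%), which include the untested Mad1l1. Within 50 bases of the start the order was the opposite, with 9 of 29 (31.0%) and 2 of the other 10 (20.0%), and no test was made. Over the whole window, CCAAT occurred in 17 of 29 and in 7 of the other 10, and TTTAAA in 7 of 29 and 0 of 10. These matches are descriptions of letters in a window.

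**Figure D2:**
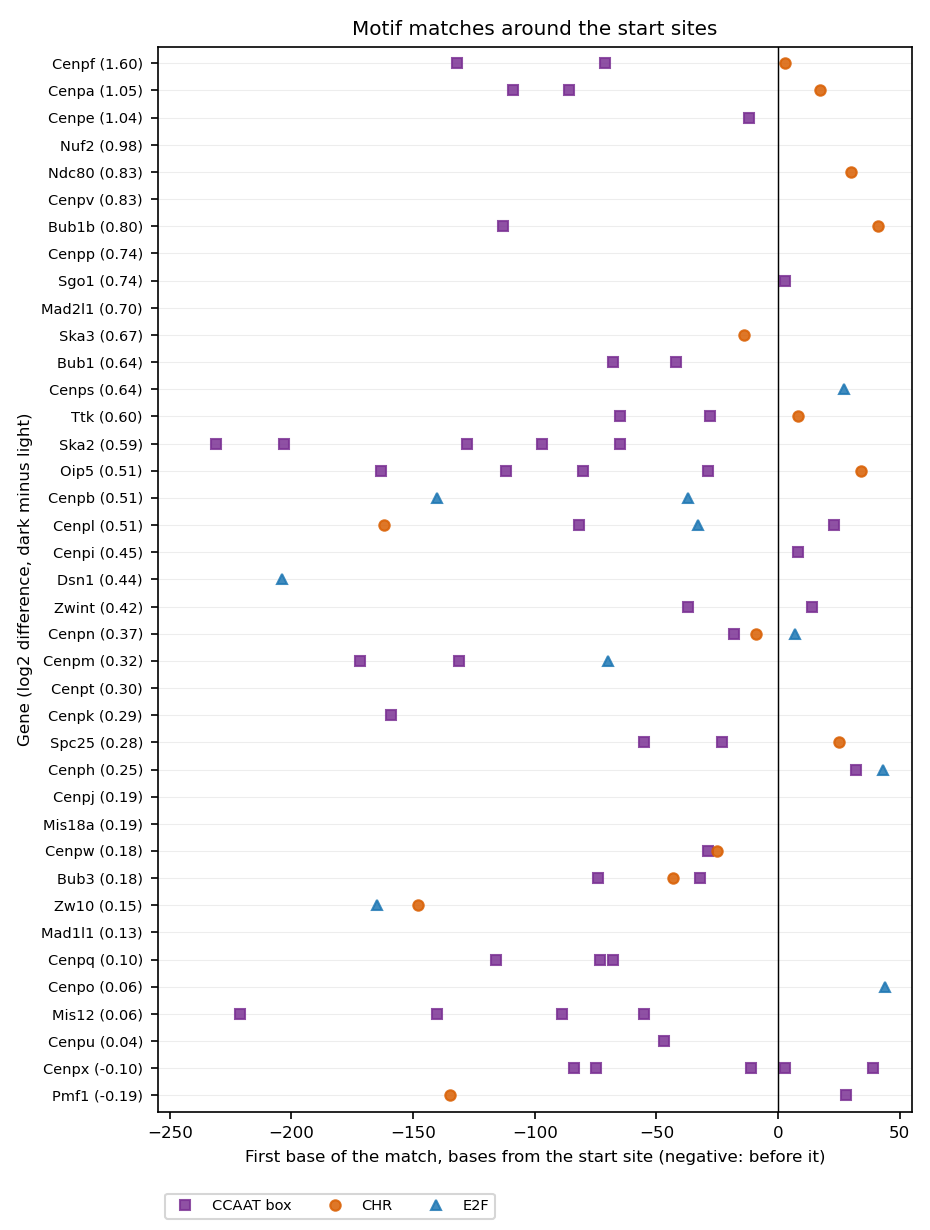
Positions of CCAAT (squares), TTTGAA (circles) and GCGGGAA (triangles) matches on either strand in the first listed RefSeq promoter of the 39 genes, in bases from the start site (x axis), with genes ordered from the largest log2 difference (Cenpf, 1.60) to the lowest (Pmf1, -0.19). Circles lie near the start in Cenpf, Cenpa, Ndc80, Bub1b, Ska3, Ttk, Oip5, Cenpn and Spc25, and also in Bub3 and Cenpw, which did not pass.

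The corona is the outermost, fibrous layer of the kinetochore. Cenpf, a large coiled-coil protein of the corona, had intensities of 879, 888, 862 and 754 in dark zone arrays, against 287, 278, 273 and 277 in light zone arrays. The light zone arrays lay close together and far below every dark zone array. The log2 difference was 1.60 (SE 0.07, limma adjusted p = 5.8e-09), a 3.03-fold rise and the largest of the set. Cenpe, the kinesin that captures microtubules at the kinetochore, had 1844, 2189.7, 2093 and 2266 in dark zone arrays, against 1034, 1249.8, 959 and 872 in light zone arrays. It rose by 1.04 (SE 0.10, limma adjusted p = 8.2e-06), with no overlap between the zones although both varied more than for Cenpf.

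The Ndc80 complex is the main microtubule-binding unit, in which Ndc80 and Nuf2 touch the microtubule and Spc24 and Spc25 join the complex to the inner side. Nuf2 had intensities of 1238, 1220.4, 1292 and 1192 in dark zone arrays, against 623, 648, 641 and 601 in light zone arrays, giving a log2 difference of 0.98 (SE 0.06, limma adjusted p = 8.2e-08). Ndc80 had 485, 551, 532 and 495 in dark zone arrays, against 298, 298, 290.5 and 270.2 in light zone arrays, giving a log2 difference of 0.83 (SE 0.06, limma adjusted p = 8.8e-07). In both genes the lowest dark zone array lay far above the highest light zone array. Spc24 had 593, 559.7, 595 and 571 in dark zone arrays, against 372, 336, 355 and 338 in light zone arrays, giving a log2 difference of 0.73 (SE 0.06, limma adjusted p = 1.3e-06). Spc25, the partner of Spc24, had 1290.4, 1305, 1443 and 1319 in dark zone arrays, against 1059, 1063, 1154 and 1123 in light zone arrays. Its difference of 0.28 (SE 0.06, limma adjusted p = 0.0027) was the smallest of the complex, and a dimmer probe set of Spc25 gave 0.26.

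Unequal change within a complex was tested on the log2 ratio of each pair of genes in each array, for the 25 pairs of tested genes in the Ndc80, Mis12 and Ska complexes and the checkpoint. These ratios were compared between the zones by exact permutation (two-sided, 70 ways to place 4 dark zone labels), which can give no p below 0.0286 and takes no account of replicate numbers shared between the zones. After adjustment over the 25 pairs, 16 passed, each at the smallest p the permutation test can give (0.0286) and an adjusted p of 0.045. Because the 16 pairs share the same p, they passed together, and no pair would have passed alone. Each pass thus depended on how many of the 25 pairs reached that p. The 16 pairs include every pair with Bub3 or Pmf1, whose dimmer probe sets gave higher differences than the brightest one. In the Ndc80 complex 4 of 6 pairs passed: the rise of Spc25 was smaller than that of Nuf2 by 0.69, of Ndc80 by 0.55 and of Spc24 by 0.44, and that of Spc24 was smaller than that of Nuf2 by 0.25. Probe sets of the same gene also differ in how far they move, by a median of 0.16 and at most 0.85 over the 21 genes with more than 1 probe set above the filter. The part of probe choice in the gaps between genes was not tested.

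Of the tested checkpoint genes, 4 rose by 0.60 to 0.80, and Bub3 did not pass. Bub1b, which encodes BubR1 and binds and blocks the anaphase activator Cdc20, had 1202, 1069, 1137 and 1102 in dark zone arrays, against 636, 652, 677 and 620.0 in light zone arrays, giving a log2 difference of 0.80 (SE 0.06, limma adjusted p = 7.5e-07). Mad2l1, which encodes the Mad2 protein of the same inhibitory complex, had 3266, 3412, 3453 and 3000.0 in dark zone arrays, against 2029.8, 2068, 2069 and 1906 in light zone arrays, giving a log2 difference of 0.70 (SE 0.06, limma adjusted p = 3.5e-06). Neither gene had a light zone array within the range of the dark zone. The kinase gene Bub1 had 1459, 1528, 1605 and 1513 in dark zone arrays, against 937, 1004, 1003 and 966 in light zone arrays, giving a log2 difference of 0.64 (SE 0.06, limma adjusted p = 3.1e-06). Ttk, which encodes the Mps1 kinase that starts checkpoint signalling, had 592, 580.4, 646 and 559 in dark zone arrays, against 389, 405, 392 and 378 in light zone arrays, giving a log2 difference of 0.60 (SE 0.06, limma adjusted p = 9.9e-06). Among the 4 risen genes, the pairs that passed the ratio test were Bub1b with Bub1 (gap of 0.16), Bub1b with Ttk (0.20) and Mad2l1 with Ttk (0.10). Dimmer probe sets gave 0.79 for Bub1, 0.93 and 0.35 for Bub1b and 0.47 for Ttk. The part of probe choice in these gaps was not tested.

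Bub3, the adaptor that carries Bub1 and BubR1 to kinetochores, had 3092, 4637, 5072 and 4584 in dark zone arrays, against 3901, 3783, 3497 and 3967 in light zone arrays. Dark zone replicate 1 lay below all light zone arrays, while the other 3 dark zone arrays lay above all of them. The difference of 0.18 (SE 0.13, 95% interval -0.10 to 0.45, limma adjusted p = 0.29) did not pass, and without dark zone replicate 1 it was 0.33 (limma adjusted p = 0.0032). The design of the array marks this probe set (suffix _s_at) as shared by several transcripts. All 4 dimmer probe sets of Bub3 were called higher in the dark zone in a fit over all named probe sets, at 0.27, 0.64, 0.48 and 0.29. Mad1l1, which encodes the Mad1 protein that anchors Mad2 at kinetochores, was below the filter, with 15.7 to 19.4 in dark zone arrays and 14.5 to 16.6 in light zone arrays. Its arrays overlapped between the zones, and it was not tested.

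**Figure D3:**
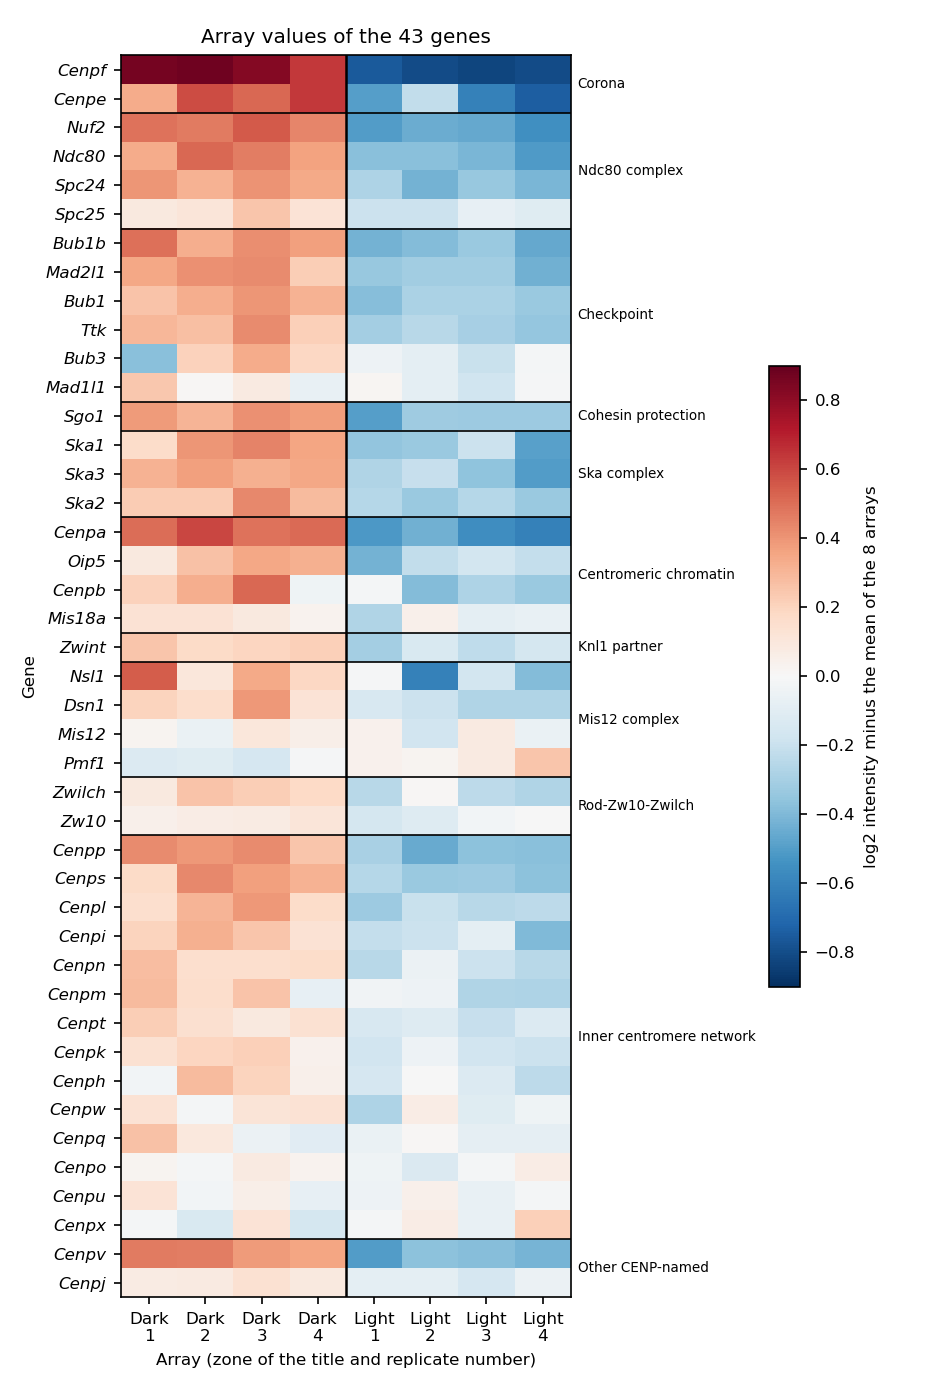
Log2 intensity of each gene in each array minus the mean over the 8 arrays (colour scale), with dark zone arrays on the left, light zone arrays on the right and genes grouped by role (y axis). Cenpf is the most strongly coloured row, and among the dark zone arrays Bub3 is low in replicate 1 alone. Cenpo, Cenpu, Mis12 and Mad1l1 show no clear step between the zones.

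The 3 Ska genes, whose protein complex keeps kinetochores on shortening microtubules, rose together. Ska1 had 263, 309, 319 and 299.6 in dark zone arrays, against 183, 186, 205 and 167 in light zone arrays, giving a log2 difference of 0.69 (SE 0.08). Ska3 was at 0.67 (SE 0.07) and Ska2 at 0.59 (SE 0.06), and their limma adjusted p-values were 2.7e-05 or lower. Of the 3 pairs of Ska genes none passed the ratio test (exact permutation p between 0.2 and 0.971), with gaps of 0.01, 0.10 and 0.09. Sgo1, the shugoshin that protects cohesin at centromeres until anaphase, had 805, 762, 819 and 801 in dark zone arrays, against 437, 495, 491 and 491 in light zone arrays. It rose by 0.74 (SE 0.06, limma adjusted p = 1.8e-06), and its dimmer probe set gave 0.58.

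All 4 genes of centromeric chromatin were called higher in the dark zone, over a wide range. Cenpa, the histone H3 variant that marks the centromere, had 1873, 2004, 1858 and 1879 in dark zone arrays, against 925, 981, 897 and 868 in light zone arrays, giving a log2 difference of 1.05 (SE 0.06, limma adjusted p = 7.3e-08). The zones were far apart, with little spread within either. Oip5 and Mis18a encode subunits of the Mis18 complex, which licenses the loading of new CENP-A after mitosis. Oip5 had 61.4 to 73.7 in dark zone arrays and 43.1 to 51.6 in light zone arrays, giving a log2 difference of 0.51 (SE 0.08, limma adjusted p = 0.00023). Mis18a had 1103, 1104, 1074 and 1033 in dark zone arrays, against 839, 1044, 951 and 965 in light zone arrays. Light zone replicate 2 fell within the dark zone range, and the difference of 0.19 (SE 0.07, limma adjusted p = 0.0497) stood at the edge of the threshold. That call was lost without any array other than light zone replicate 2 (limma adjusted p = 0.054 to 0.14). Cenpb, which binds a motif of centromeric satellite DNA, was dim, at 57.5 to 84.7 in dark zone arrays and 45.0 to 58.5 in light zone arrays. Its difference was 0.51 (SE 0.11, limma adjusted p = 0.0034), and dark zone replicate 4 lay just below light zone replicate 1.

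The Mis12 complex is the bridge from the inner network to the Ndc80 complex. In it 2 genes rose, Mis12 did not pass, and Pmf1 was called lower by its brightest probe set only. Nsl1 had 115, 84.3, 99.5 and 89.4 in dark zone arrays, against 78.1, 51.7, 70.1 and 60.1 in light zone arrays, giving a log2 difference of 0.58 (SE 0.13, limma adjusted p = 0.0027). Dsn1 had 131, 128, 149.97 and 124 in dark zone arrays, against 103, 99.8, 94.8 and 94.8 in light zone arrays, giving a log2 difference of 0.44 (SE 0.07, limma adjusted p = 0.00033). In both genes the zones did not overlap, but a dimmer probe set of Nsl1 gave 0.13. Mis12 itself had 224, 211, 236 and 228 in dark zone arrays, against 225, 196, 232 and 211 in light zone arrays. These ranges largely coincide, with a difference of 0.06 (95% interval -0.09 to 0.21, limma adjusted p = 0.53).

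Pmf1 was the only tested gene of the set called lower in the dark zone. It had 218, 220.1, 214 and 236 in dark zone arrays, against 243, 241, 251 and 282 in light zone arrays, giving a log2 difference of -0.19 (SE 0.07, limma adjusted p = 0.034). The arrays did not overlap, as for 23.2% of all tested genes in this direction. The brightest probe set of Pmf1 is of a shared type (suffix _x_at). The second probe set gave 0.00, and in the fit over all named probe sets the brightest one missed the threshold (limma adjusted p = 0.057). The call was lost without dark zone replicate 1, 2 or 3 or light zone replicate 3 or 4 (limma adjusted p = 0.06 to 0.096). Within the complex 5 of 6 pairs passed the ratio test, and the pair of Nsl1 and Dsn1 did not.

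Zwint, a partner of Knl1 that helps to recruit the Rod-Zw10-Zwilch complex, had 523, 494, 503 and 509.6 in dark zone arrays, against 355, 399, 375 and 393 in light zone arrays. It rose by 0.42 (SE 0.06, limma adjusted p = 0.00014). The 5 dimmer probe sets of Zwint above the filter ranged from -0.01 to 0.52, and 2 of them passed. Zwilch and Zw10 belong to the complex that brings dynein and Mad1 to kinetochores. Zwilch rose by 0.37 (SE 0.07, limma adjusted p = 0.0016). Zw10 had 530.3 to 554 in dark zone arrays and 459.9 to 512 in light zone arrays. The zones did not overlap, but the difference of 0.15 (SE 0.06, limma adjusted p = 0.06) missed the threshold.

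In the inner centromere network the differences ran from -0.10 to 0.74. Of its 14 genes, 9 were called higher in the dark zone, none lower, and 5 did not pass. The CENP-H, I, K and M subunits form a unit at its core, and all 4 genes passed: Cenpi was at 0.45 (SE 0.07), Cenpm at 0.32 (SE 0.09), Cenpk at 0.29 (SE 0.06) and Cenph at 0.25 (SE 0.08). Both dimmer probe sets of Cenpk did not pass, at 0.05 and -0.16. The call of Cenph was lost without dark zone replicate 2 or 3 or light zone replicate 1 or 4 (limma adjusted p = 0.051 to 0.07). Cenpl and Cenpn encode the pair that recognises the CENP-A nucleosome, and rose by 0.51 (SE 0.07) and 0.37 (SE 0.06).

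Of the CENP-O, P, Q and U genes, whose proteins form a further unit, Cenpp passed and the other 3 did not. Cenpp had 350.2, 341, 349 and 309.6 in dark zone arrays, against 213, 190.5, 201 and 200.5 in light zone arrays, giving a log2 difference of 0.74 (SE 0.06, limma adjusted p = 2.1e-06). The zones were far apart, and the dimmer probe sets gave 0.66 and 0.21. Cenpo had 144, 139, 149 and 144 in dark zone arrays, against 137, 129, 139.7 and 148 in light zone arrays, giving a log2 difference of 0.06 (95% interval -0.07 to 0.19). Cenpu had 133 to 152 in dark zone arrays and 133 to 144 in light zone arrays, giving a log2 difference of 0.04 (95% interval -0.09 to 0.18). Cenpq had 639 to 825 in dark zone arrays and 649.9 to 693 in light zone arrays, giving a log2 difference of 0.10 (95% interval -0.07 to 0.28). For these 3 genes the arrays of the zones overlapped, and each upper bound lies below the lower bound of Cenpp (0.61).

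The CENP-T, W, S and X proteins have histone folds and bind DNA. Cenps had 767, 918, 877 and 843 in dark zone arrays, against 569.9, 539.6, 542 and 526 in light zone arrays, giving a log2 difference of 0.64 (SE 0.07, limma adjusted p = 1.1e-05). Cenpt rose by 0.30 (SE 0.06, limma adjusted p = 0.0012). Cenpx, whose protein partners CENP-S also in DNA repair, had 193 to 235 in dark zone arrays and 206 to 250.2 in light zone arrays. Its difference was -0.10 (95% interval -0.28 to 0.08, limma adjusted p = 0.37). Cenpw had 433, 390.3, 429.5 and 433 in dark zone arrays, against 327, 413, 367 and 386 in light zone arrays. It was at 0.18 (limma adjusted p = 0.079), and at 0.23 without light zone replicate 2 (limma adjusted p = 0.033).

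Of the remaining Cenp-named genes, Cenpv rose and Cenpj rose little. Cenpv, whose protein associates with centromeres and spindle microtubules, had 591, 589, 556 and 548 in dark zone arrays, against 302, 332, 328 and 319.6 in light zone arrays. The difference was 0.83 (SE 0.06, limma adjusted p = 4.2e-07), with the zones far apart. Cenpj, whose protein builds centrioles, had 307 to 322 in dark zone arrays and 263 to 281 in light zone arrays, giving a log2 difference of 0.19 (SE 0.05, limma adjusted p = 0.014).

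Other probe sets of the same genes gave a second reading of the same RNA. The 43 genes have 87 probe sets, and 24 genes have more than 1. Of the 33 dimmer probe sets above the filter, 21 were called higher in the dark zone, none lower, and 12 did not pass, against 22.6% called higher among all 8304 dimmer probe sets above the filter. For Cenpf the 2 dimmer probe sets gave 2.00 and 1.15, for Cenpe 1.42, for Cenpa 1.21 and for Bub1b 0.93 and 0.35. A further Cenpa probe set, below the filter, gave 0.10.

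**Figure D4:**
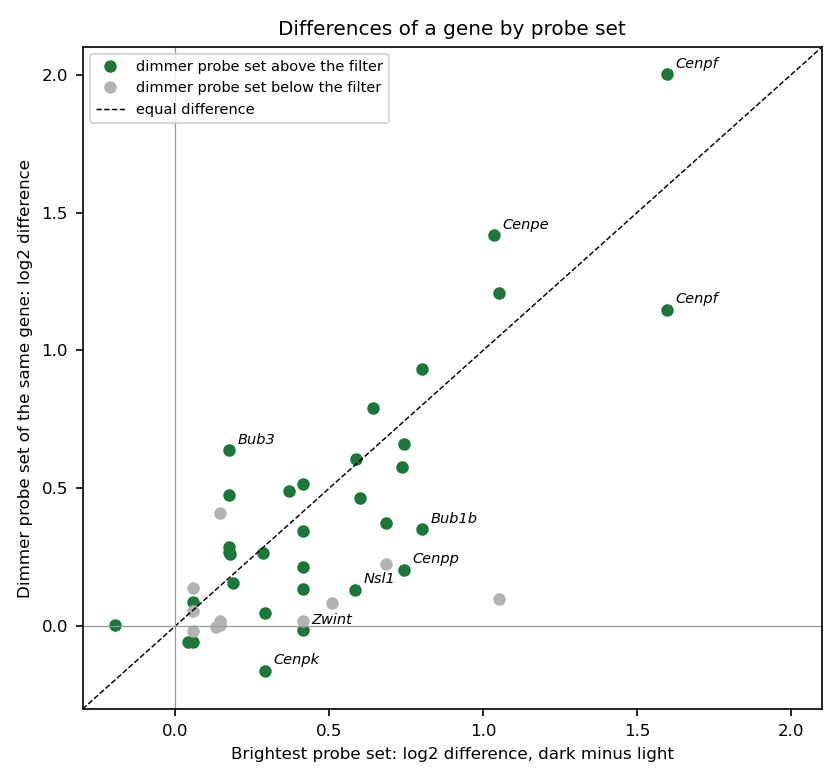
Log2 difference (dark zone minus light zone) of the brightest probe set of a gene (x axis) against that of each of its dimmer probe sets (y axis). Green points are above the filter on dim probe sets and grey ones below it, the dashed line marks equal differences, and genes are named where a green point departs from it by more than 0.35; Bub3 lies above the line, and Cenpk, Nsl1 and Zwint below it.

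Among 26 other kinetochore and chromosome segregation genes, 19 (73.1%) rose in the dark zone, none fell and 7 did not pass. This compares with 19.1% higher and 24.8% lower among all tested genes, and the median difference of the 26 genes was 0.60. Cdc20, the anaphase activator that the checkpoint holds back, had 4291, 4545, 4766 and 4630.0 in dark zone arrays, against 1662, 1786, 1667 and 1660.0 in light zone arrays. It rose by 1.43 (SE 0.06, limma adjusted p = 5.8e-09), which was the largest difference of this list. Next were the microtubule depolymerase Kif2c (1.32, SE 0.09), the kinase Plk1 (1.30, SE 0.09) and Sgo2a, another shugoshin, at 498 ± 55.3 in dark zone arrays and 216 ± 15.9 in light zone arrays (SD, n = 4 each). Knl1, the scaffold for Bub1, BubR1 and Bub3, rose by 0.71 (SE 0.09), and Kntc1, which encodes Rod, the partner of Zw10 and Zwilch, by 0.34 (SE 0.07). All 4 genes of the chromosomal passenger complex, which corrects faulty attachments, rose: Cdca8 by 0.82, Birc5 by 0.79, Aurkb by 0.55 and Incenp by 0.49. Of the checkpoint-silencing genes, Mad2l1bp rose by 0.27 (SE 0.08). Trip13 was at 0.14 (SE 0.06, limma adjusted p = 0.064), and the difference between them was not tested. The CENP-R gene Itgb3bp was at -0.16 (limma adjusted p = 0.14), and Cenpc1, whose protein links CENP-A to the Mis12 complex, rose by 0.20 (SE 0.06). The other genes of this list that did not pass were Haspin, Pttg1, Ppp1cc, Clasp1 and Ndel1, at -0.08 to 0.15.

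For cell cycle context, 13 of 13 mitotic genes of another list, which shares Plk1 with the one just described, rose, with a median of 0.95 and a range of 0.52 to 1.96. Of 16 DNA replication genes 6 (37.5%) were called higher in the dark zone, 1 (Tyms) lower and 9 did not pass. Tyms was dim, at 34.5 to 39.9 in dark zone arrays and 44.8 to 53.4 in light zone arrays, near the filter. Of all tested genes, 19.1% were called higher and 24.8% lower, and the median of the replication genes was 0.10. The median of the kinetochore and checkpoint set, 0.48, lay between those of the mitotic and replication genes. That of the inner centromere network, 0.29, lay nearer to the replication genes. No test was made between these lists. Within a zone the members varied little as a group: the median deviation of an array from its zone's mean ran from -0.02 in dark zone replicate 4 to 0.05 in dark zone replicate 3, and from -0.03 in light zone replicate 4 to 0.03 in light zone replicate 2. In dark zone replicate 3, 32 of 42 tested genes lay above the zone's mean, and in dark zone replicate 4, 12 of 42. Both spreads are small beside the median difference between the zones.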

How the data were processed

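Gene expression was measured in 8 sorted samples, 4 dark zone and 4 light zone, grouped by their titles. Per the submitters' processing notes, the authors used RMA, which corrects background, equalizes the arrays by quantiles and summarises probes, a version of which is not given in the sources used here. The values as deposited by the authors are linear intensities for 45037 probe sets, and log2 was taken with no pseudocount. Array medians were 27.3 to 28.1 because RMA equalizes them, so these values hold no measure of total RNA. Precision is limited by there being 8 arrays. Of the probe sets, 34945 carry 1 gene symbol of the platform annotation, 932 several and 9160 none here. Symbols were checked against RefSeq (GRCm38.p6), and 0 changed.

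Dark zone minus light zone was fitted over 10547 genes with limma 3.58.1 in R 4.3.3 (lmFit, eBayes, two-sided, Benjamini-Hochberg adjusted p under 0.05). Pairs of genes were compared with exact permutation tests in Python 3.11.15, where figures were drawn with matplotlib 3.10.9. The pipeline was tested on simulated data. Same-numbered replicates were checked for pairing, and the numbers were not used as a block.

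The members and lists were chosen with earlier results of these data known. All members are named, and array values are given for the 10 with the largest rises, for the 1 that fell and, chosen after their values were seen, for further members. Of the related list, the 4 largest differences were to be named, and others, like Tyms, were added after their values were seen. Alternatives varied the filter, probe sets, scaling, variance model, weights, block, threshold and arrays.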

Additional observations from a re-analysis of the deposited data

Results flagged for a closer look

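In 6 of 84 groups of 4 arrays (42 tested genes in 2 zones), 1 array stood apart by Dixon's criterion, the gap to the nearest array as a ratio of the whole range, where chance alone marks about 5% of groups. The dark zone held 3 of these groups. For Cenpa, dark zone replicate 2 was highest (2004, against a median of 1873 in the other 3 arrays, ratio 0.852). For Cenpn, dark zone replicate 1 was highest (634, against 582, ratio 0.892), and for Cenpw, dark zone replicate 2 was lowest (390.3, against 433, ratio 0.919).

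The light zone held the other 3 groups. Light zone replicate 2 was highest for Cenpk (666, against 608, ratio 0.836) and for Zwilch (514, against 429.7, ratio 0.896). For Sgo1, light zone replicate 1 was lowest (437, against 491, ratio 0.928). No array was marked for more than 2 genes. Leaving out the array that stood apart changed no call of these 6 genes.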

How the results depend on the processing

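Of the 33 genes higher in the dark zone, 30 kept the call under all 17 alternatives at the same threshold (filter, probe sets, scaling, variance model, weights, block and each array left out). Leaving out arrays gave 31 to 34 genes higher, 0 to 1 lower and medians of 0.43 to 0.50. Mis18a, Cenph and Cenpk lost the call at times: Cenpk with the mean of all probe sets of a gene (0.06, limma adjusted p = 0.6), Cenph without 4 of the arrays in turn and Mis18a under most settings. Bub3 passed with the mean of its probe sets (0.37) and without shared probe sets, types _s_at and _x_at (0.27, an alternative chosen after seeing the data). Zw10 passed with a filter at the 60th percentile (limma adjusted p = 0.049).

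The median was 0.45 with no filter and 0.43 with the mean of all probe sets, because other features entered it. No gene was lower (0) with the mean of probe sets, without shared probe sets, with quantile normalization once more, at an adjusted p under 0.01 or beyond 1.2-fold. Pmf1 was then at 0.0031 without shared probe sets, and Cenpu at -0.0076 with the mean of probe sets. That mean also put 1 related gene (Ndel1) lower. An adjusted p under 0.01 left 29 genes higher, and the count over all genes at that threshold is not given here. A test beyond 1.2-fold left 19. In that test 567 of all 10547 tested genes were higher and 863 lower. The shorter window near the start (50 bases on each side) was chosen after seeing the data. In it CCAAT occurred in 43.6% of the members with a promoter, against 17.6% of tested genes and 15.6% of all. AACGG occurred in 7.7%, against 10.3% of tested genes and 7.8% of all.

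Replicates with the same number correlated in their deviations at r = 0.13, 0.19, 0.06 and 0.24, all above 0. The value of 0.06, for replicate 3, was low, and the numbers were not taken as pairs. Dark zone replicate 3 correlated better with light zone replicate 1 (0.09). Light zone replicate 3 correlated best with its own number, by little (0.060, against 0.058 for dark zone replicate 1). Replicates with different numbers gave r of -0.15 to 0.09. For numbers 1, 2 and 4 each replicate correlated best with its own number, a hint from the data and not from the design. The replicate block gave 32 genes higher, 1 lower and a median of 0.48, and the call that changed was that of Mis18a (limma adjusted p = 0.054). Dim probe sets limit Mad1l1.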
